A study of Mus musculus with 18 samples.

Results

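Rab GTPases are described here as measured by RNA-seq in cultured neurons of mouse dorsal root ganglia (DRG), the clusters of sensory nerve cells along the spinal cord. The members were every gene of the deposited table whose symbol is Rab followed by a number and, where present, a letter, which gave 56 of 17198 genes. Wild-type (WT) cultures and cultures heterozygous for the tm1a allele of Dynlrb1 (HET) were collected at 12, 24 and 48 h, with 3 cultures in each of 6 groups and 18 cultures in all. Dynlrb1 encodes a light chain of the roadblock family in cytoplasmic dynein, which in axons moves organelles and vesicles on microtubules back to the soma, and tm1a is a targeted insertion of the knockout-first kind. The allele belongs to the whole animal and not to neurons alone, 1 copy of the gene remains in HET cultures, and the WT cultures carry no allele or agent that the labels name. Age, sex and number of animals behind each culture are not given in the sources used here. Where cultures share animals, p-values measure only the spread between these samples, which may be technical.

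Rab proteins are small GTPases that switch between a GDP-bound form in the cytosol and a GTP-bound form on a membrane, and each marks particular organelles. Exchange factors switch them on, GTPase-activating proteins switch them off, and in the GTP-bound form they recruit effectors such as tethers, motors and motor adaptors. In sensory neurons, Rab5 and Rab7 are known from the endosomes that dynein carries along axons with neurotrophin receptors, Rab11 from recycling endosomes that enter axons, and Rab3 and Rab27 from secretory vesicles.

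Values named normalized counts are the authors' normalized values, and cultures are listed in the order of their replicate numbers, which at 48 h were 1, 2 and 3 and at the earlier times 1, 2 and 5. Log2 fold changes are differences of log2(normalized count + 1), and adjusted p-values come from limma with Benjamini-Hochberg adjustment over all 17198 genes, with 0.05 as the threshold. Sequencing depth is unknown, so the precision of a value rests on the spread between cultures. The label check was met in every culture: Dynlrb1 lay between 5229 and 6674 normalized counts in the 9 WT cultures and between 2716 and 4087 in the 9 HET cultures. Sensory neuron markers were abundant in every group, with a summed FPKM of 12 genes from 4192 to 6228, where FPKM is the authors' level per length and library size. Culture 3 of HET at 48 h stood apart from its group, with a summed FPKM of 6 neutrophil and red cell genes of 70.0 against 5.93 and 7.94, and of 5 cell division genes of 3.43 against 14.2 and 9.66. Values without this culture are given beside the results that it changes.

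Nearly every Rab gene was present at a measurable level, and the family's total varied little between cultures. Summed over all 56 genes, the FPKM lay between 2057 and 2409 in the 18 cultures. In WT the sum was 2147 to 2273 at 12 h and 2057 to 2137 at 48 h, without overlap. Over this time the WT mean of Rab6b went from 229 to 127 FPKM and that of Rab3a from 188 to 95.9, while other members rose. A mean FPKM of at least 10 was reached by 37 Rab genes, and 6 had a mean under 1. Rab6a, which acts at the Golgi, had the highest mean at 205 FPKM, with a range over cultures from 179 to 245. Rab6b, its neuron-enriched paralog, followed with a mean of 180 FPKM and a range from 111 to 243. Rab15, a Rab of neural early and recycling endosomes, had a mean of 158 FPKM and ran from 98.8 to 211. The ranges of these genes overlapped, so their order differed between cultures. Lowest were Rab17, known from epithelial recycling, with a mean of 0.0954 FPKM and a range from 0.0234 to 0.230, Rab44, with 0.158 FPKM from 0.0493 to 0.358, and Rab26, a Rab of synaptic vesicles and their autophagy, with 0.245 FPKM from 0.117 to 0.435. All 56 passed the filter on low values.

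**Figure D1:**
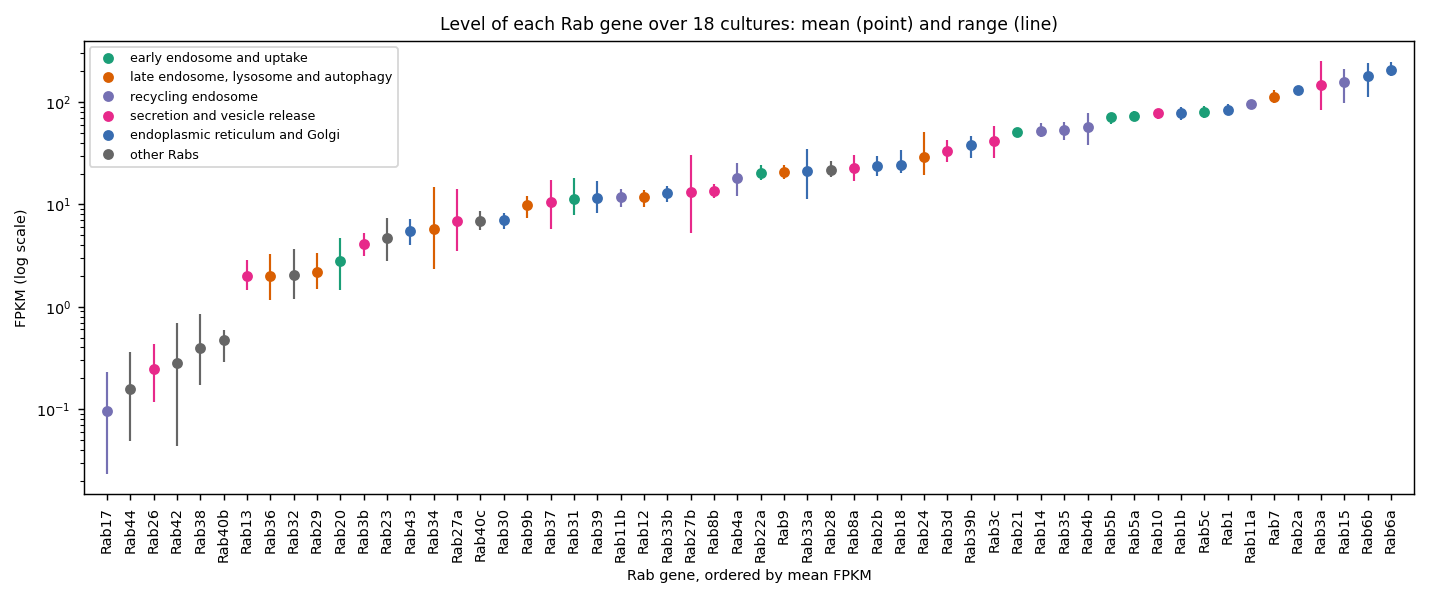
Mean FPKM of each of the 56 Rab genes (point, log scale) with its range over the 18 cultures (line), coloured by role and ordered by mean. The means span from 0.0954 for Rab17 to 205 for Rab6a, and 37 genes lie at 10 or above.

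By role, the summed levels differed more than they moved. The 13 Rabs of the endoplasmic reticulum and Golgi summed to 741 to 902 FPKM in the 18 cultures, the 8 of recycling endosomes to 403 to 490, the 7 of early endosomes and uptake to 280 to 347, and the 8 of late endosomes, lysosomes and autophagy to 180 to 216. The Golgi sum in WT went from 823 to 872 at 12 h to 741 to 789 at 48 h without overlap. Rab6b alone went from a mean of 229 to 127 FPKM, while Rab1b (74.0 to 84.6), Rab2a (123 to 135) and Rab33a (14.0 to 24.6) went up. Rab6a (201 to 193) and Rab39b (35.7 to 29.3) went down less. The lower sum thus does not show that the Golgi Rabs fell as a group. Other sums in WT rose without overlap. That of early endosomes and uptake was 280 to 300 at 12 h and 305 to 322 at 48 h. That of the 8 Rabs in none of the named roles was 32.4 to 34.5 and 36.9 to 40.3. The sum of the 12 Rabs of secretion and vesicle release moved more, much of it through Rab3a. In WT their sum was 396 to 432 FPKM at 12 h, 327 to 348 at 24 h and 293 to 331 at 48 h. In HET it was 420 to 521 FPKM at 12 h, 307 to 344 at 24 h and 362 to 385 at 48 h. The 12 h sums lay above the later ones in both genotypes, and at 48 h every HET culture lay above every WT culture. Rab3a, with a mean of 146 FPKM, and Rab10, with 77.8, were its largest members. From 12 to 48 h the group mean of Rab3a went from 188 to 95.9 FPKM in WT and from 206 to 134 in HET. In WT Rab3c also went down, from 49.1 to 33.3, while Rab10 (73.0 to 78.8), Rab8a (17.8 to 29.0) and Rab27a (5.48 to 10.2) went up. The sum thus does not show that its members fell together. In cultures of mixed cells, fewer cells of a type and less RNA per cell cannot be told apart.

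Time in culture moved many individual Rab genes, in both directions, while the median Rab gene barely moved. Between 12 and 48 h in WT, 12 Rab genes (21.4%) rose, against 30.0% of all genes, and 11 (19.6%) fell, against 17.1% of all genes. The risers, by size, were Rab34, Rab24, Rab27a, Rab39, Rab33a, Rab15, Rab32, Rab8a, Rab31, Rab43, Rab5c and Rab22a. Those that fell were Rab20, Rab3a, Rab27b, Rab6b, Rab36, Rab4b, Rab4a, Rab3c, Rab11b, Rab3b and Rab30. Both shares lay near those of all genes. The median log2 fold change was -0.04 over the Rab genes and 0.11 over all genes. On the authors' other, plain adjusted columns the medians were -0.15 and 0.01, so a shift of the zero line common to all genes separates the scalings, and the Rab median lay below that of all genes on both.

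In HET the same comparison gave fewer calls. Rab34, Rab24, Rab39, Rab43 and Rab8a rose, which is 5 of 56 (8.93%) against 10.6% of all genes, and Rab3a, Rab4b and Rab3c fell, which is 3 of 56 (5.36%) against 3.62%. All 8 passed the threshold in the same direction in WT, which is every HET call and 34.8% of the 23 WT calls. The WT cultures are different ones, but both comparisons use 1 estimate of the spread. In WT 30.0% of all genes rose and 17.1% fell, and the matching overlap over all genes was not counted. Without culture 3 at 48 h these 8 kept their calls, and Rab27a, Rab13 and Rab31 were called higher and Rab39b, Rab6b and Rab35 lower as well. The plain adjusted columns gave 4 higher and 4 lower. The number of calls in HET rested on single cultures: it was 14 without culture 3 at 48 h, 0 without culture 1 or culture 2 at 48 h or culture 2 at 12 h, and 3 without culture 1 at 12 h. It was also 0 in a fit to the 2 groups alone. No share of all genes was set beside these counts, so the shifts are not shown to be particular to Rab genes. No Rab gene differed between genotypes in its 12 to 48 h change after adjustment (limma, 0 of 56, against 0.00% of all genes), while 7 had an unadjusted p under 0.05 (12.5%, against 8.92% of all genes).

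By 24 h, 2 Rab genes had risen in WT, Rab33a and Rab15 (3.57%, against 2.96% of all genes), and 1 had fallen, Rab4a (1.79%, against 0.657%). The count of 3 became 7 with the absent directions as covariates, 5 in the compared groups alone and 8 with the replicate block. Without culture 1 of WT at 12 h it became 1, with Rab33a alone, and without any other single culture of these groups it became 0. A fit without a mean-variance trend also gave 0, and the plain adjusted columns gave 1 higher and 2 lower. These alternative counts likewise stand without the share of all genes. In HET, 6 had risen by 24 h (10.7%, against 13.1% of all genes) and 8 had fallen (14.3%, against 5.76%). The risers were Rab33a, Rab34, Rab24, Rab31, Rab8a and Rab22a. Those that fell were Rab27b, Rab37, Rab36, Rab3a, Rab4a, Rab3c, Rab3d and Rab4b. On the plain adjusted columns the split was 5 higher and 11 lower. The comparisons with 12 h within a genotype share their 12 h cultures, so their calls are not independent. In none of these 4 comparisons was a call made for 31 of the 56 Rab genes, and the matching share of all genes was not counted.

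**Figure D2:**
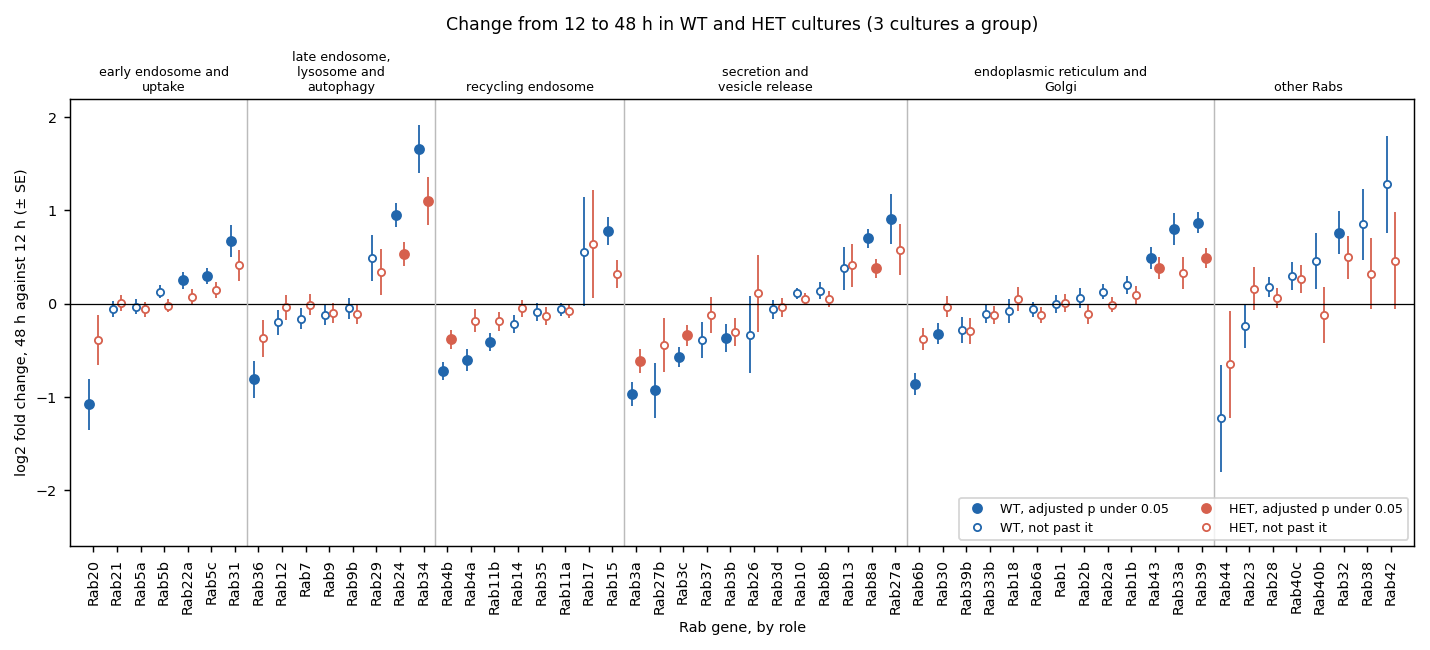
Log2 fold change of each Rab gene from 12 to 48 h (± SE) in WT (blue) and HET (red), grouped by role, with filled points past an adjusted p of 0.05. Filled points lie on both sides of 0, 12 above and 11 below in WT, with Rab34 highest at 1.66.

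Among Rabs of early endosomes and uptake, 3 of 7 rose in WT from 12 to 48 h and 1 fell, and none passed in HET. Over the same time 30.0% of all genes rose and 17.1% fell in WT, and 10.6% rose and 3.62% fell in HET. Rab5a, which drives fusion of early endosomes and marks signalling endosomes, was at 6613, 7515 and 6499 normalized counts in WT at 12 h, 7386, 6830 and 7644 at 24 h and 6563, 6630 and 7032 at 48 h. Rab5a in HET was at 7412, 7453 and 7709 at 12 h, 6988, 7544 and 8049 at 24 h and 6904, 6953 and 7797 at 48 h. The groups overlapped at every time, and none of the 9 comparisons called it. Its log2 fold change from 12 to 48 h was -0.03 in WT and -0.06 in HET. Its paralog Rab5c rose in WT, with a change of 0.30 on the log2 scale (SE 0.088, adjusted p = 0.00962 in limma), and Rab22a, which acts in endosomal sorting, had a change of 0.25 on the log2 scale (SE 0.087, adjusted p = 0.0245 in limma). The Rab22a call was lost on the plain adjusted columns (log2 fold change 0.15, limma adjusted p = 0.133). The 3 members not called in WT, Rab5a, Rab5b and Rab21, ran from -0.06 to 0.13.

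Rab31, which moves cargo between the trans-Golgi network and endosomes, was at 1429, 1319 and 1183 normalized counts in WT at 12 h, 1655, 1491 and 1956 at 24 h and 1866, 2626 and 1828 at 48 h. Rab31 in HET was at 1167, 1138 and 1314 at 12 h, 1515, 1658 and 1969 at 24 h and 1467, 2073 and 1333 at 48 h. Every later culture lay above every 12 h culture of its genotype, and HET culture 3 at 48 h was only just above them. In WT the change to 48 h was 0.67 on the log2 scale (SE 0.17, adjusted p = 0.00386 in limma). In HET the change to 48 h was 0.41 (limma adjusted p = 0.107), and 0.53 without culture 3 (limma adjusted p = 0.0325). From 12 to 24 h in HET it was 0.50 on the log2 scale (SE 0.17, adjusted p = 0.0456 in limma), a call lost on leaving out any of the 6 cultures (limma adjusted p from 0.0537 to 0.175). Rab20, linked to phagosomes and to low oxygen, fell in WT. It was at 100, 115 and 89.6 normalized counts in WT at 12 h, 113, 72.8 and 89.8 at 24 h and 43.9, 51.1 and 47.1 at 48 h. Rab20 in HET was at 68.7, 75 and 125 at 12 h, 74.6, 142 and 98.2 at 24 h and 51.2, 66.5 and 83.3 at 48 h. In WT the 48 h cultures were the lowest and did not overlap those at 12 h, whereas in HET the times overlapped. The fall in WT was -1.08 on the log2 scale (SE 0.27, adjusted p = 0.00425 in limma), and HET had a change of -0.39 on the log2 scale (SE 0.27, adjusted p = 0.343 in limma).

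Late endosomal, lysosomal and autophagy Rabs held the strongest riser of the family. Rab7, the main Rab of late endosomes and an adaptor to dynein through its effector RILP, was at 10381, 11955 and 10292 normalized counts in WT at 12 h, 10188, 11671 and 8982 at 24 h and 10968, 9267 and 9089 at 48 h. Rab7 in HET was at 10758, 9520 and 9851 at 12 h, 11073, 9181 and 9160 at 24 h and 11089, 9019 and 9904 at 48 h. Neither time nor genotype separated these cultures, and the fitted HET against WT difference was 0.03 at 48 h with an SE of 0.11. Rab34, which positions lysosomes through RILP and serves in cilium formation, was at 230, 187 and 194 normalized counts in WT at 12 h, 275, 268 and 274 at 24 h and 673, 838 and 473 at 48 h. Rab34 in HET was at 136, 134 and 190 at 12 h, 334, 290 and 327 at 24 h and 446, 406 and 192 at 48 h. In WT each time lay wholly above the one before, and in HET culture 3 at 48 h lay near the 12 h level. The rise to 48 h was 1.66 on the log2 scale (SE 0.26, adjusted p = 0.000133 in limma) in WT and 1.10 on the log2 scale (SE 0.26, adjusted p = 0.0172 in limma) in HET. Without HET culture 3 at 48 h the HET value was 1.49 (limma adjusted p = 0.000212). Already at 24 h the HET change was 1.06 on the log2 scale (SE 0.26, adjusted p = 0.0105 in limma), and it had an adjusted p of 0.059 in limma without culture 2 of HET at 12 h.

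Rab24, an atypical Rab that associates with autophagic compartments, was at 1956, 1788 and 1546 normalized counts in WT at 12 h, 2168, 2051 and 2297 at 24 h and 3105, 3942 and 3165 at 48 h. Rab24 in HET was at 1492, 1538 and 1673 at 12 h, 2354, 2062 and 2536 at 24 h and 2553, 2525 and 1801 at 48 h. The pattern was that of Rab34, with no overlap between 12 and 48 h in either genotype and HET culture 3 at 48 h the lowest of its group. The rise to 48 h was 0.95 on the log2 scale (SE 0.13, adjusted p = 7.39e-05 in limma) in WT and 0.53 on the log2 scale (SE 0.13, adjusted p = 0.0214 in limma) in HET. The HET value was 0.70 without culture 3 at 48 h (limma adjusted p = 0.000884). Rab36, the close relative of Rab34, moved the other way. It was at 279, 303 and 283 normalized counts in WT at 12 h, 184, 181 and 205 at 24 h and 195, 171 and 131 at 48 h. Rab36 in HET was at 251, 356 and 254 at 12 h, 167, 207 and 128 at 24 h and 273, 207 and 186 at 48 h. The WT 12 h cultures lay above all later WT cultures, while the HET 48 h cultures overlapped those at 12 h. The fall in WT to 48 h was -0.81 on the log2 scale (SE 0.2, adjusted p = 0.00387 in limma), and that in HET to 24 h was -0.78 on the log2 scale (SE 0.2, adjusted p = 0.0145 in limma). The 24 h call was lost without HET culture 2 at 12 h (limma adjusted p = 0.0953) or culture 5 at 24 h (limma adjusted p = 0.0801). The other 5 members, Rab7, Rab9, Rab9b, Rab12 and Rab29, ran from -0.20 to 0.49 from 12 to 48 h in WT, with no call.

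Of the 8 Rabs of recycling endosomes, 1 rose and 3 fell in WT from 12 to 48 h, beside 30.0% and 17.1% of all genes. Rab11a, the main Rab of slow recycling, was at 8848, 9815 and 9465 normalized counts in WT at 12 h, 9334, 8588 and 9197 at 24 h and 9269, 8441 and 9321 at 48 h. Rab11a in HET was at 9502, 10061 and 9703 at 12 h, 8566, 9416 and 9485 at 24 h and 9128, 9140 and 9376 at 48 h. In WT the times overlapped, and in HET the 12 h cultures lay just above the later ones, with no comparison past the threshold. Its paralog Rab11b fell in WT, with a change of -0.41 on the log2 scale (SE 0.099, adjusted p = 0.00297 in limma). Both Rab4 paralogs, which serve fast recycling to the plasma membrane, fell. Rab4a was at 1314, 1253 and 1272 normalized counts in WT at 12 h, 882, 953 and 882 at 24 h and 1028, 717 and 821 at 48 h. Rab4a in HET was at 1215, 1479 and 1257 at 12 h, 771, 935 and 825 at 24 h and 1296, 1085 and 1111 at 48 h. Its 24 h cultures lay below its 12 h cultures in both genotypes, and at 48 h HET culture 1 lay within the 12 h range of HET, with HET cultures 2 and 3 and all WT cultures below that of their genotype. The change to 24 h was -0.50 on the log2 scale (SE 0.12, adjusted p = 0.0388 in limma) in WT and -0.64 on the log2 scale (SE 0.12, adjusted p = 0.00318 in limma) in HET, and that to 48 h was -0.60 on the log2 scale (SE 0.12, adjusted p = 0.00109 in limma) in WT and -0.18 on the log2 scale (SE 0.12, adjusted p = 0.343 in limma) in HET. As given above, the WT call at 24 h was lost on leaving out any 1 culture of its groups.

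Rab4b was at 3529, 3548 and 2961 normalized counts in WT at 12 h, 2606, 2816 and 2666 at 24 h and 2058, 1844 and 2198 at 48 h. Rab4b in HET was at 3416, 3767 and 3094 at 12 h, 2543, 2548 and 2501 at 24 h and 2562, 2391 and 2950 at 48 h. In WT each time lay wholly below the one before, whereas in HET the level at 48 h was much that of 24 h. The fall to 48 h was -0.72 on the log2 scale (SE 0.1, adjusted p = 7.15e-05 in limma) in WT and -0.38 on the log2 scale (SE 0.1, adjusted p = 0.025 in limma) in HET. Rab15 went up. It was at 12822, 14001 and 15898 normalized counts in WT at 12 h, 20930, 19498 and 24401 at 24 h and 19985, 27404 and 26662 at 48 h. Rab15 in HET was at 14587, 17351 and 20541 at 12 h, 23106, 19760 and 27122 at 24 h and 19508, 23543 and 22167 at 48 h. All later WT cultures lay above those at 12 h, and in HET the times overlapped. The rise in WT was 0.60 on the log2 scale (SE 0.15, adjusted p = 0.0388 in limma) at 24 h and 0.78 on the log2 scale (SE 0.15, adjusted p = 0.000564 in limma) at 48 h, beside a change of 0.32 on the log2 scale (SE 0.15, adjusted p = 0.148 in limma) in HET. At 24 h the WT call was lost on the plain adjusted columns (limma adjusted p = 0.0512). Rab17, the lowest, had 3.85, 4.61 and 10.2 normalized counts in WT at 12 h and 8.87, 9.18 and 8.7 at 48 h. Rab17, Rab14, Rab35 and Rab11a were not called from 12 to 48 h in WT. In HET the change of Rab35 was -0.13 (limma adjusted p = 0.402), and -0.27 without culture 3 at 48 h (limma adjusted p = 0.0276).

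Among the 12 Rabs of secretion and vesicle release, 4 fell and 2 rose in WT from 12 to 48 h, beside 17.1% and 30.0% of all genes, and 3 of the 4 that fell belong to the Rab3 subfamily of regulated exocytosis. Rab3a, the abundant synaptic vesicle Rab, was at 12202, 11942 and 9761 normalized counts in WT at 12 h, 8425, 8024 and 7931 at 24 h and 6286, 5064 and 5984 at 48 h. Rab3a in HET was at 11319, 15082 and 10817 at 12 h, 6808, 8079 and 6759 at 24 h and 7779, 7221 and 9173 at 48 h. WT cultures stepped down at each time without overlap, and in HET the 48 h cultures were on the level of those at 24 h. The fall to 48 h was -0.97 on the log2 scale (SE 0.13, adjusted p = 5.58e-05 in limma) in WT and -0.61 on the log2 scale (SE 0.13, adjusted p = 0.0149 in limma) in HET. From 12 to 24 h the change was -0.77 on the log2 scale (SE 0.13, adjusted p = 0.00183 in limma) in HET, a fall, and -0.47 on the log2 scale (SE 0.13, adjusted p = 0.056 in limma) in WT, which missed the threshold.

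Rab3c was at 16460, 16498 and 19030 normalized counts in WT at 12 h, 13838, 12590 and 13964 at 24 h and 12169, 9899 and 13224 at 48 h. Rab3c in HET was at 17808, 20600 and 17400 at 12 h, 11695, 14102 and 11664 at 24 h and 14215, 14612 and 15278 at 48 h. The 12 h cultures of each genotype were above all its later ones. The fall to 48 h was -0.57 on the log2 scale (SE 0.11, adjusted p = 0.000584 in limma) in WT and -0.34 on the log2 scale (SE 0.11, adjusted p = 0.0483 in limma) in HET. Rab3b was scarcer, with a mean of 4.06 FPKM beside 41.7 for Rab3c. It was at 720, 722 and 623 normalized counts in WT at 12 h, 525, 427 and 516 at 24 h and 539, 432 and 642 at 48 h. Rab3b in HET was at 565, 701 and 634 at 12 h, 441, 549 and 509 at 24 h and 513, 548 and 477 at 48 h. WT culture 3 at 48 h overlapped the 12 h cultures, and the WT fall passed narrowly, with a change of -0.37 on the log2 scale (SE 0.15, adjusted p = 0.0454 in limma). Rab3d, the Rab3 of larger secretory granules, was at 5348, 5877 and 5230 normalized counts in WT at 12 h, 4629, 4272 and 4570 at 24 h and 5278, 4680 and 5889 at 48 h. Rab3d in HET was at 5648, 6874 and 6087 at 12 h, 4391, 4197 and 4727 at 24 h and 6670, 5988 and 5448 at 48 h. Its cultures were lowest at 24 h and overlapped those of 12 h again at 48 h in both genotypes. It fell by 24 h in HET, with a change of -0.48 on the log2 scale (SE 0.1, adjusted p = 0.00451 in limma), and was not called at 48 h in either genotype.

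Rab37, a Rab of secretory granules, also had its lowest group means at 24 h. It was at 1129, 1491 and 1227 normalized counts in WT at 12 h, 830, 734 and 997 at 24 h and 1048, 794 and 1106 at 48 h. Rab37 in HET was at 1202, 1874 and 1359 at 12 h, 619, 814 and 877 at 24 h and 1613, 1208 and 1233 at 48 h. The 24 h cultures lay below the 12 h cultures in both genotypes without overlap. By 24 h the change was -0.93 on the log2 scale (SE 0.19, adjusted p = 0.00391 in limma) in HET, a fall, and -0.59 on the log2 scale (SE 0.19, adjusted p = 0.0856 in limma), past no threshold, in WT. Rab8a, which carries post-Golgi vesicles to the plasma membrane and the cilium, rose. It was at 1574, 1405 and 1486 normalized counts in WT at 12 h, 1946, 1742 and 1929 at 24 h and 2351, 2543 and 2377 at 48 h. Rab8a in HET was at 1492, 1445 and 1777 at 12 h, 1894, 2044 and 2284 at 24 h and 2041, 2203 and 1876 at 48 h. WT cultures lay higher at each time without overlap, and HET cultures stayed at their 24 h level. The rise to 48 h was 0.70 on the log2 scale (SE 0.099, adjusted p = 7.12e-05 in limma) in WT and 0.38 on the log2 scale (SE 0.099, adjusted p = 0.0235 in limma) in HET. At 24 h in HET it was 0.40 on the log2 scale (SE 0.099, adjusted p = 0.0108 in limma), which missed the threshold without culture 2 at 12 h (limma adjusted p = 0.0685) or culture 5 at 24 h (limma adjusted p = 0.0597). Rab26, at the bottom of the range, had 20.7, 11.7 and 19.5 normalized counts in WT at 12 h and 18.2, 11.3 and 10.9 at 48 h, and Rab10, Rab13 and Rab8b were likewise not called in any time comparison. Rab13 had a change of 0.41 from 12 to 48 h in HET (limma adjusted p = 0.233), and of 0.67 without culture 3 at 48 h (limma adjusted p = 0.0344).

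The 2 Rab27 paralogs, which tether secretory granules and exosome-bearing endosomes to the plasma membrane through shared effectors, were the only pair of one number whose members passed the threshold in opposite directions in one comparison. Rab27a was at 532, 673 and 823 normalized counts in WT at 12 h, 525, 430 and 672 at 24 h and 1371, 1221 and 1182 at 48 h. Rab27a in HET was at 616, 929 and 849 at 12 h, 515, 552 and 585 at 24 h and 1725, 1450 and 651 at 48 h. The WT 48 h cultures lay above all earlier WT cultures, and in HET cultures 1 and 2 at 48 h were the highest of all 18 while culture 3 lay within the 12 h range. The rise in WT was 0.91 on the log2 scale (SE 0.27, adjusted p = 0.0116 in limma), and it missed the threshold without culture 1 of WT at 12 h (limma adjusted p = 0.0541). HET had a change of 0.58 on the log2 scale (SE 0.27, adjusted p = 0.154 in limma), and 1.01 without culture 3 at 48 h (limma adjusted p = 0.00213).

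Rab27b was at 2920, 4422 and 5695 normalized counts in WT at 12 h, 2292, 1844 and 3019 at 24 h and 2237, 1514 and 3147 at 48 h. Rab27b in HET was at 4919, 8894 and 6256 at 12 h, 1566, 2614 and 2519 at 24 h and 5342, 4190 and 4868 at 48 h. WT cultures spread widely and overlapped between 12 and 48 h, and in HET the 24 h cultures lay below all other HET cultures. The change to 48 h in WT was -0.93 on the log2 scale (SE 0.29, adjusted p = 0.0148 in limma). It missed the threshold without culture 5 at 12 h (log2 fold change -0.71, limma adjusted p = 0.0801) or culture 2 at 48 h (-0.66, limma adjusted p = 0.0969). The gap between the paralogs in that comparison was 1.84 on the log2 scale. In HET, Rab27b fell by 24 h, with a change of -1.58 on the log2 scale (SE 0.29, adjusted p = 0.00256 in limma), and at 48 h had a change of -0.44 on the log2 scale (SE 0.29, adjusted p = 0.307 in limma). Per length, the FPKM ratio of Rab27b to Rab27a was 2.34, 2.80 and 2.95 in WT at 12 h, 1.86, 1.83 and 1.91 at 24 h and 0.695, 0.528 and 1.13 at 48 h. In HET the ratio was 3.40, 4.08 and 3.14 at 12 h, 1.30, 2.02 and 1.83 at 24 h and 1.32, 1.23 and 3.19 at 48 h. The WT ratio therefore moved from clearly above 1 to about 1 or below, and HET culture 3 at 48 h kept a 12 h ratio.

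**Figure D3:**
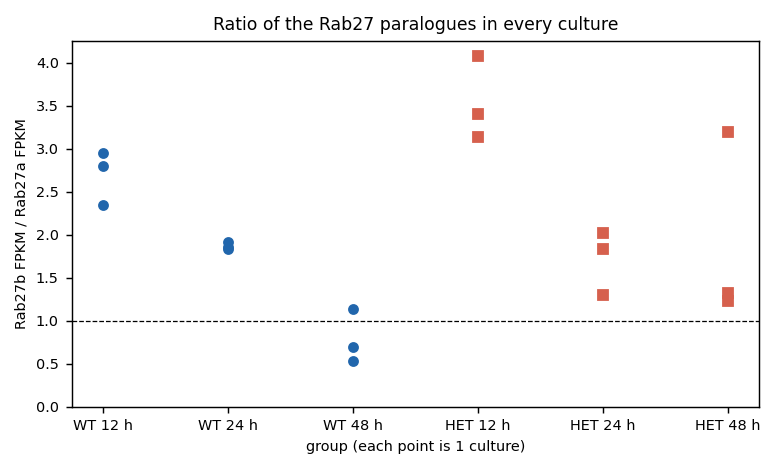
FPKM of Rab27b divided by that of Rab27a in each of the 18 cultures, by group (WT as blue circles, HET as red squares), with a dashed line at 1. The WT points go from 2.34 to 2.95 at 12 h to 0.528 to 1.13 at 48 h, and 1 HET point at 48 h stays at 3.19.

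Of the 13 Rabs of the endoplasmic reticulum and Golgi, 3 rose and 2 fell in WT from 12 to 48 h, again beside 30.0% and 17.1% of all genes. Rab6a, which carries vesicles from and to the Golgi and binds dynein adaptors, was at 25927, 27394 and 26975 normalized counts in WT at 12 h, 26683, 23902 and 28432 at 24 h and 25305, 24265 and 27694 at 48 h. Rab6a in HET was at 28482, 32640 and 30734 at 12 h, 24861, 27674 and 27862 at 24 h and 26916, 28364 and 28958 at 48 h. Its cultures overlapped between times in WT, and no comparison called it. Rab6b was at 41466, 45707 and 47744 normalized counts in WT at 12 h, 36349, 40556 and 32348 at 24 h and 26575, 21806 and 26352 at 48 h. Rab6b in HET was at 43325, 41662 and 38678 at 12 h, 37020, 34040 and 27989 at 24 h and 31223, 27862 and 36705 at 48 h. WT cultures stepped down at each time without overlap, and HET cultures at 48 h overlapped those at 24 h. The change was -0.86 on the log2 scale (SE 0.12, adjusted p = 7.97e-05 in limma) in WT, a fall, and -0.38 on the log2 scale (SE 0.12, adjusted p = 0.051 in limma) in HET, which just missed the threshold. Without HET culture 3 at 48 h the HET value was -0.48 (limma adjusted p = 0.0105).

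Rab39, of Golgi-related and endosomal traffic, had the smallest adjusted p of the family in WT. It was at 1098, 1130 and 1022 normalized counts in WT at 12 h, 1465, 1154 and 1369 at 24 h and 2071, 2105 and 1762 at 48 h. Rab39 in HET was at 1144, 1187 and 1142 at 12 h, 1533, 1315 and 1362 at 24 h and 1785, 1681 and 1440 at 48 h. WT cultures again lay higher at each time without overlap, and the HET 48 h cultures lay above those of 12 h. The rise was 0.87 on the log2 scale (SE 0.11, adjusted p = 3.72e-05 in limma) in WT and 0.49 on the log2 scale (SE 0.11, adjusted p = 0.0153 in limma) in HET. Rab39b, its neuron-enriched paralog, was not called in any of the 9 comparisons, and HET culture 3 at 48 h stood apart with 6640 normalized counts against 3967 and 4260. Without that culture its 12 to 48 h change in HET was -0.52 (limma adjusted p = 0.00113), against -0.29 (limma adjusted p = 0.161) with it. Rab33a, a neuronal Golgi Rab linked to vesicles for axon growth, was at 748, 739 and 546 normalized counts in WT at 12 h, 1251, 1151 and 1242 at 24 h and 951, 1505 and 1119 at 48 h. Rab33a in HET was at 737, 617 and 711 at 12 h, 1695, 1216 and 1492 at 24 h and 766, 796 and 1051 at 48 h. All 24 and 48 h cultures lay above the 12 h cultures of their genotype, and in HET those at 24 h were the highest. The rise by 24 h was 0.85 on the log2 scale (SE 0.17, adjusted p = 0.0237 in limma) in WT and 1.08 on the log2 scale (SE 0.17, adjusted p = 0.0016 in limma) in HET. By 48 h the change was 0.80 on the log2 scale (SE 0.17, adjusted p = 0.00143 in limma) in WT and, past no threshold, 0.33 on the log2 scale (SE 0.17, adjusted p = 0.204 in limma) in HET.

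Rab43, another Golgi Rab, was at 868, 863 and 778 normalized counts in WT at 12 h, 1075, 968 and 938 at 24 h and 1100, 1276 and 1164 at 48 h. Rab43 in HET was at 787, 720 and 925 at 12 h, 1145, 906 and 1015 at 24 h and 1070, 1123 and 960 at 48 h. The 48 h cultures lay above those at 12 h in both genotypes. The rise was 0.49 on the log2 scale (SE 0.12, adjusted p = 0.00235 in limma) in WT and 0.38 on the log2 scale (SE 0.12, adjusted p = 0.0389 in limma) in HET, and the HET call was lost on the plain adjusted columns (limma adjusted p = 0.0981). Rab30, a Golgi Rab, fell in WT with a change of -0.32 on the log2 scale (SE 0.11, adjusted p = 0.0279 in limma). The 8 members not called from 12 to 48 h in WT, among them Rab1, Rab1b, Rab2a, Rab2b and Rab18 of early secretory traffic, ran from -0.28 to 0.20. Of the 8 remaining Rabs, those of melanosome-like organelles, cilia, ubiquitin ligases and little-studied ones, only Rab32 passed in a time comparison, with a change of 0.76 on the log2 scale (SE 0.23, adjusted p = 0.0126 in limma). Rab44, one of the lowest, had 33.2, 61 and 12.1 normalized counts in WT at 12 h and 8.42, 12.1 and 16.6 at 48 h. The 7 not called in WT ran from -1.23 to 1.28, and both ends of that range, Rab44 and Rab42, were genes at low levels.

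**Figure D4:**
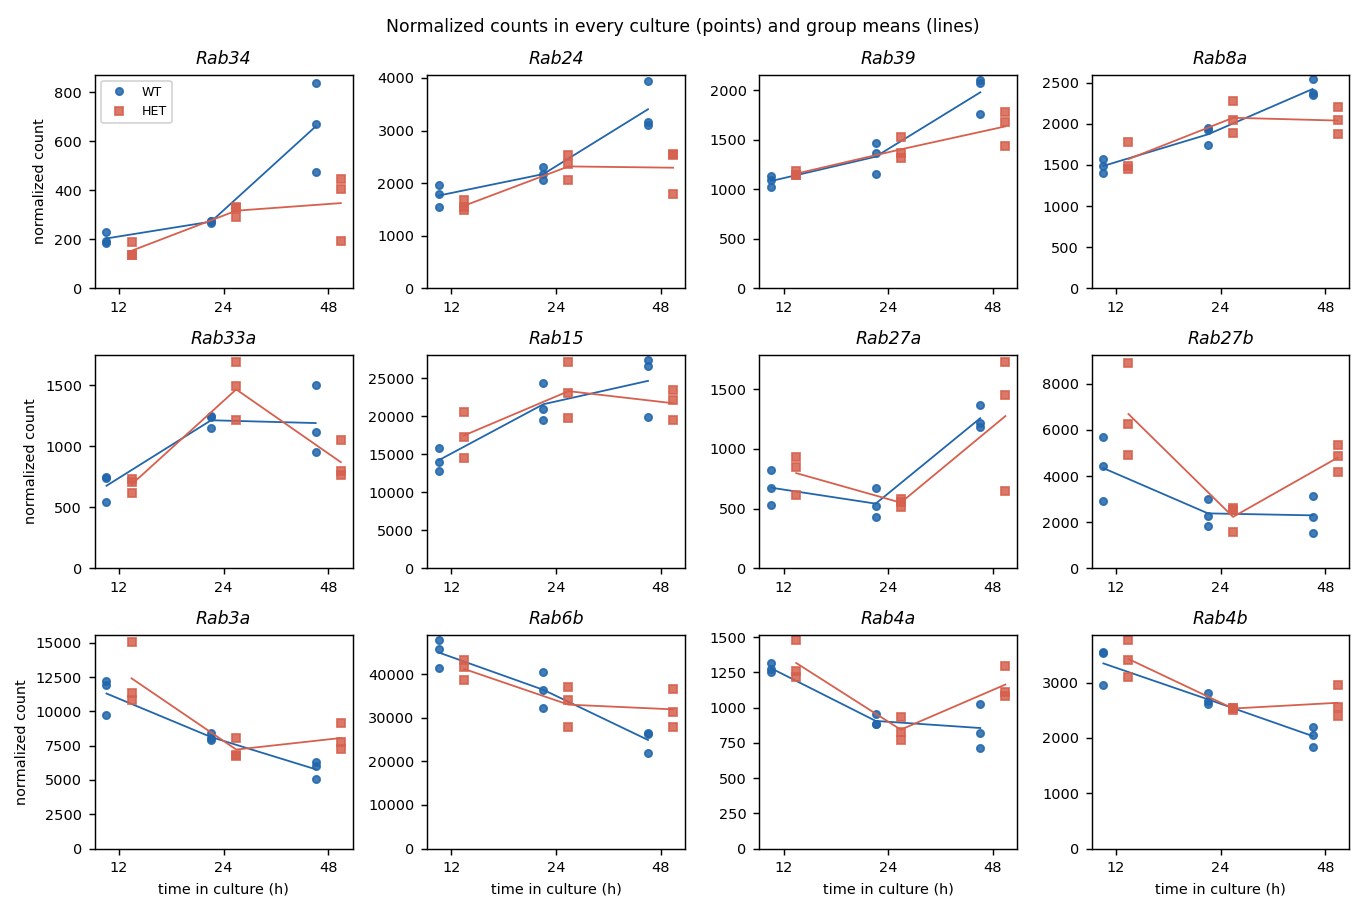
Normalized counts of 12 Rab genes in every culture against time (WT as blue circles drawn to the left, HET as red squares to the right, lines through group means, time steps drawn equally wide). Rab34, Rab24, Rab39 and Rab8a climb with time in WT, Rab3a, Rab6b and Rab4b descend, and HET culture 3 at 48 h is the low Rab34 point at 192.

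The promoters of 4 genes called from 12 to 48 h in both genotypes are shown, 3 that rose and 1 that fell, because each holds a short motif searched for here. Rab8a, Rab43, Rab4b and Rab3c were also called in both genotypes, and their windows hold none of these motifs, so they are not printed. The choice therefore shows no link between motif and change. They are RefSeq sequences of build GRCm38.p6, from 250 bases before to 30 after an annotated start site, read along the gene's strand, with motif matches in capitals. Positions count the start base as 0. The Rab34 promoter lies on chromosome 11 at chr11:78188177-78188456 (+ strand), that of Rab24 on chromosome 13 at chr13:55321951-55322230 (- strand), that of Rab39 on chromosome 9 at chr9:53706203-53706482 (- strand) and that of Rab3a on chromosome 8 at chr8:70754453-70754732 (+ strand). The genes themselves span chr11:78188430-78192193 for Rab34, chr13:55319743-55321946 for Rab24, chr9:53684110-53706232 for Rab39 and chr8:70754679-70758677 for Rab3a in the GENCODE annotation of GRCm38.
Rab34: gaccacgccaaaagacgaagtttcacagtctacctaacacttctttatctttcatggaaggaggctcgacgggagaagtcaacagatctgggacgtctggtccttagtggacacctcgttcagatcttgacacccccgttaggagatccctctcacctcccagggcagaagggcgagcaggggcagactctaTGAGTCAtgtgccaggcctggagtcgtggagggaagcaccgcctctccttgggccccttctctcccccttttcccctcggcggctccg
Rab24: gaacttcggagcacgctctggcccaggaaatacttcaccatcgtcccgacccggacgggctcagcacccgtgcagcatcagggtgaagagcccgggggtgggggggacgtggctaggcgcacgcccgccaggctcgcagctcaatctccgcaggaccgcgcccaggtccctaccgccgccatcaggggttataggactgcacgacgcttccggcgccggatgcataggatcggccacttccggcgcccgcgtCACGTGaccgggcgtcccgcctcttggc
Rab39: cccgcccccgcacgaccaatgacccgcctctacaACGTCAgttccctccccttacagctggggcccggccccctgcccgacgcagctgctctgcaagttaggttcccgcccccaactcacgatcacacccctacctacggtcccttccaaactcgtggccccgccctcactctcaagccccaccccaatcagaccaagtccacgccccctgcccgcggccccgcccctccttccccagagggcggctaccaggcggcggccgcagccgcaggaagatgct
Rab3a: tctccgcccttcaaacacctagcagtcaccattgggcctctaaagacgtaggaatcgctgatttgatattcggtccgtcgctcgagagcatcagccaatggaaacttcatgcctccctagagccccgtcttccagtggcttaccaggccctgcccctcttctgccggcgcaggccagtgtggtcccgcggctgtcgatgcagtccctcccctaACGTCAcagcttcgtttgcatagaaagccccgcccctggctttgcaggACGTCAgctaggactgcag

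Rab34 holds 1 match to the AP-1 motif TGANTCA starting at position -58. Rab24 holds the E-box core CACGTG from position 2, just inside the transcript by the RefSeq start but upstream of the GENCODE span given above. Rab39 and Rab3a hold the CRE core TGACGT on the strand opposite to the one printed, Rab39 at position -216 and Rab3a at positions -37 and 11. The 3 motifs were searched on both strands in windows of 300 bases, from 250 before to 50 after each start, and were chosen after the expression values were known. RefSeq windows matched 45 of the 56 Rab genes, with 57 windows. AP-1 was found in 3 Rab genes, Rab15, Rab34 and Rab39b, and in 7.81% of all 32851 windows. The CRE core was found in 6 Rab genes and in 7.51% of windows, and the E-box core in 6 and in 7.15%. Rab genes are counted here by gene and the background by window, and some genes have several windows, so the 2 are not like shares. Of the 12 risers in WT, all with a window, 2 held AP-1, 1 the CRE core and 2 the E-box core. Of the 7 with a window that fell, 0 held AP-1, 2 the CRE core and 1 the E-box core. No printed match overlaps another. A match is a string of letters and not a shown binding site.

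Between genotypes, no Rab gene passed the threshold at any time in the fit without pairing, and 10 passed at 48 h in the fit with pairing given below. At 12 h the count was 0 of 56 (0.00%) in limma with Benjamini-Hochberg adjustment, against 0.00581% of all genes, with 4 at an unadjusted p under 0.05 (7.14%, against 8.41%). HET and WT cultures did not overlap for 10 Rab genes (17.9%, against 15.1% of all genes). Lowest in p were Rab2b, of traffic between the endoplasmic reticulum and the Golgi, then Rab6a and Rab27b. Rab2b at 12 h was at 2618, 2472 and 2439 normalized counts in WT and 2757, 3359 and 2973 in HET. Its HET cultures all lay above its WT cultures, with a difference of 0.27 on the log2 scale (SE 0.11, adjusted p = 0.577 in limma). Rab6a, whose cultures also did not overlap at 12 h, had a difference of 0.19 on the log2 scale (SE 0.084, adjusted p = 0.577 in limma). Rab27b overlapped, with a difference of 0.63 on the log2 scale (SE 0.29, adjusted p = 0.589 in limma), and 0.37 without culture 1 of WT or 0.40 without culture 2 of HET.

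At 24 h the genotypes were close. Again 0 of 56 passed in limma (0.00%, against 0.00581% of all genes), 0 had an unadjusted p under 0.05 (0.00%, against 1.15%) and 2, Rab4b and Rab34, did not overlap (3.57%, against 5.60%). At this time Rab4b was lower in HET and Rab34 higher, each opposite to its direction at 48 h. The lowest p belonged to Rab14, of recycling endosomes and the Golgi. Rab14 at 24 h was at 6245, 7907 and 6430 normalized counts in WT and 6476, 5774 and 6235 in HET. These overlapped, with a difference of -0.15 on the log2 scale (SE 0.094, adjusted p = 1.0 in limma), and a log2 fold change of -0.04 without culture 2 of WT. Rab33a had a difference of 0.26 on the log2 scale (SE 0.17, adjusted p = 1.0 in limma), with 0.15 without culture 1 of HET, and Rab8a had a difference of 0.15 on the log2 scale (SE 0.099, adjusted p = 1.0 in limma), with 0.09 without culture 2 of WT and 0.07 without culture 5 of HET. Both overlapped.

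At 48 h the genotypes lay furthest apart, for Rab genes as for genes in general. In the fit without pairing, 0 of 56 passed (0.00%, against 0.00% of all genes), 14 had an unadjusted p under 0.05 (25.0%, against 22.0%) and 15 did not overlap (26.8%, against 24.0%). Dynlrb1 itself was not called in this fit either, at 3314, 3482 and 3243 normalized counts in HET and 5995, 5677 and 6372 in WT. The absence of calls at 48 h therefore does not show that the genotypes were alike. The labels give only replicate numbers. Pairing of the genotypes at this time was inferred from correlations in these data, 0.209 to 0.461 for the 3 same-numbered pairs. The calls of the blocked fit rest on that inference. With the replicate number as a block, 6 Rab genes were higher in HET (10.7%, against 5.04% of all genes) and 4 lower (7.14%, against 7.29%). Higher were Rab27b, Rab3a, Rab4a, Rab37, Rab4b and Rab6b, and lower were Rab34, Rab24, Rab31 and Rab39. In the authors' deposited table, 6 Rab genes had an FDR under 0.05 at 48 h (10.7%, against 5.98% of all genes), namely Rab27b, Rab24, Rab34, Rab3a, Rab4a and Rab4b. Without the block, the count moved with single cultures: it was 5 without culture 3 of WT, 3 without culture 2 of HET and 2 without culture 1 of HET, and 0 without culture 3 of HET. The share of all genes in these fits is not given here, so such moves are not shown to be particular to Rab genes. With the block and without culture 3 of HET, an alternative chosen after seeing the data, 3 were higher (5.36%, against 1.75% of all genes) and 1 lower (1.79%, against 2.10%). Rab27b (log2 fold change 1.36, limma adjusted p = 0.0125), Rab37 (0.61, 0.0337) and Rab34 (-0.82, 0.0435) kept their calls. Rab3d was called as well (0.35, limma adjusted p = 0.0425, beside 0.19 and 0.191 with culture 3). The other 7 kept their direction, with adjusted p-values from 0.0509 to 0.163 in limma.

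The largest positive difference at 48 h was that of Rab27b, with 5342, 4190 and 4868 normalized counts in HET and 2237, 1514 and 3147 in WT. Its groups did not overlap. The fitted difference was 1.12 on the log2 scale (SE 0.29, adjusted p = 0.059 in limma), and with the block the adjusted p was 0.00586 in limma. Rab3a had 7779, 7221 and 9173 in HET and 6286, 5064 and 5984 in WT, again without overlap. The difference was 0.48 on the log2 scale (SE 0.13, adjusted p = 0.065 in limma), and with the block the adjusted p was 0.00915 in limma. Rab4a, Rab4b and Rab6b did not overlap either, and with the block had adjusted p-values of 0.0125, 0.00733 and 0.0229 in limma. These genes had fallen from 12 to 48 h in WT, and HET cultures at 48 h lay nearer to the 12 h values. The comparisons share the WT 48 h cultures, so a low WT value at 48 h enters both.

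The largest negative difference was that of Rab34, with 446, 406 and 192 normalized counts in HET and 673, 838 and 473 in WT, without overlap. The fitted difference was -0.98 on the log2 scale (SE 0.26, adjusted p = 0.0609 in limma), and with the block the adjusted p was 0.00434 in limma. It shrank to -0.60 (limma adjusted p = 0.282) without culture 3 of HET. Rab24 had 2553, 2525 and 1801 in HET and 3105, 3942 and 3165 in WT, without overlap. Its difference was -0.58 on the log2 scale (SE 0.13, adjusted p = 0.0516 in limma), with an adjusted p of 0.00762 in limma with the block, and it was -0.41 (limma adjusted p = 0.251) without culture 3 of HET. Without the block, leaving out culture 3 of HET changed the sign of the difference of Rab27a (-0.09 to 0.33), Rab13 (-0.21 to 0.05), Rab39b (0.22 to -0.01), Rab35 (0.06 to -0.08) and Rab23 (0.05 to -0.02), none past the threshold. Rab5a, Rab7 and Rab11a, the Rabs best known from axonal endosomes, differed at 48 h by 0.10, 0.03 and 0.03 on the log2 scale, each within its spread.

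**Figure D5:**
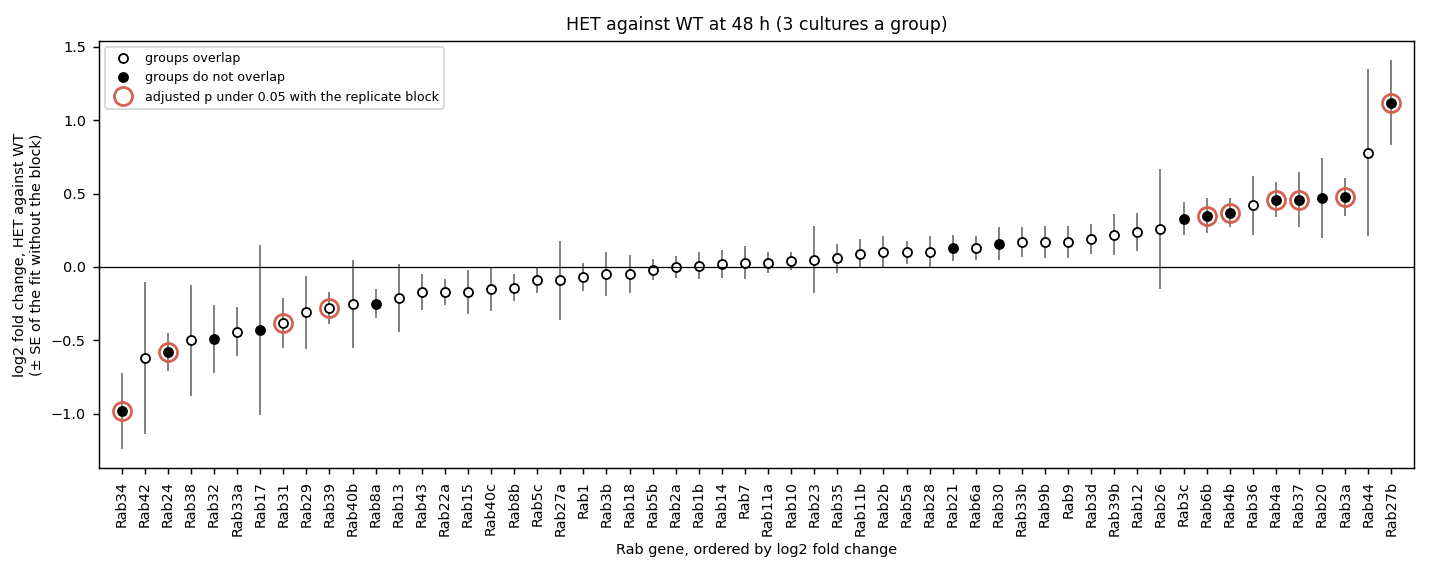
Log2 fold change of each Rab gene, HET against WT at 48 h (± SE without the block), ordered by size, with filled points where the 3 HET and 3 WT cultures do not overlap and red rings where the blocked fit passes. Rab27b stands highest at 1.12 and Rab34 lowest at -0.98, and 10 genes carry rings.

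Averaged over times, 0 of 56 Rab genes passed in limma (0.00%, against 0.0174% of all genes), and 6 had an unadjusted p under 0.05 (10.7%, against 13.5%). Lowest in p were Rab27b with a difference of 0.55 on the log2 scale (SE 0.17, adjusted p = 0.31 in limma), Rab24 with a difference of -0.22 on the log2 scale (SE 0.078, adjusted p = 0.313 in limma) and Rab34 with a difference of -0.39 on the log2 scale (SE 0.15, adjusted p = 0.313 in limma). Each had the direction of its average at 12 and 48 h but not at 24 h. Mean normalized counts at 24 h were 2233 in HET and 2385 in WT for Rab27b, 2318 and 2172 for Rab24, and 317 and 272 for Rab34. For the genotype difference in the 12 to 48 h change, the lowest p belonged to Rab6b, with a difference of 0.48 on the log2 scale (SE 0.18, adjusted p = 0.548 in limma), Rab39, with a difference of -0.37 on the log2 scale (SE 0.15, adjusted p = 0.548 in limma), and Rab4a, with a difference of 0.42 on the log2 scale (SE 0.18, adjusted p = 0.548 in limma). The larger number of WT calls over time is therefore not shown to be a difference between genotypes. The median log2 difference over the 56 Rab genes at 48 h was 0.03, beside -0.03 over all genes.

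Genes for proteins that act on Rabs moved in both directions as well, beside 30.0% of all genes that rose and 17.1% that fell. From 12 to 48 h in WT, 3 of 8 genes for prenylation, escort and GDP dissociation inhibition rose and 0 fell, among them Chml (a Rab escort protein, log2 fold change 0.40) and Rabif (0.31). Of 33 exchange factor genes, 12 rose and 6 fell, with Rin1 (1.65) and Rab3il1 (0.89) highest among the risers and Rin3 (-0.79) and Dennd3 (-0.71) lowest among those that fell. Rin1 and Rin3 activate Rab5. Of 35 GTPase-activating protein genes, 11 rose and 7 fell, with Tbc1d19 (0.66) and Tbc1d8 (0.47) highest and Tbc1d15 (-1.41), which acts on Rab7, and Sgsm2 (-0.71) lowest. Of 49 effector genes, 14 rose and 8 fell. Kif20a (2.12), a mitotic kinesin that binds Rab6, and Sytl5 (1.88), which binds Rab27, were highest. Rph3a (-1.41), the Rab3 effector rabphilin, and Sytl3 (-1.18) were lowest. Rabgap1 is counted in both of the last 2 lists.

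The medians of these lists were 0.18, 0.14, 0.06 and 0.09, beside 0.11 over all genes. In HET over the same time, 0 of 8, 5 of 33, 1 of 35 and 5 of 49 rose and 0, 0, 0 and 2 fell, beside 10.6% and 3.62% of all genes. Between genotypes at 48 h none of the 4 lists held a call in limma (0.00% of all genes were called). With the replicate block, 1 of 8, 5 of 33, 1 of 35 and 8 of 49 were lower, beside 7.29% of all genes, and 2 GTPase-activating protein genes were higher, beside 5.04%.

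Markers of other cells moved with time, beside the Rab genes above and beside 30.0% of all genes that rose and 17.1% that fell in WT. From 12 to 48 h in WT, 3 of 12 sensory neuron markers rose and 6 fell, 1 of 12 Schwann cell and satellite glia markers rose and 7 fell, 5 of 7 fibroblast markers rose, 3 of 7 macrophage markers rose and 1 fell, and 5 of 5 cell division genes rose. Endothelial and mural markers had 1 riser and 3 that fell of 7, and all 6 neutrophil and red cell genes fell. The summed FPKM of fibroblast markers was 44.8 to 96.0 at 12 h and 121 to 171 at 48 h in WT, and 54.8 to 77.9 and 90.8 to 168 in HET. That of macrophage markers was 30.0 to 63.5 and 88.0 to 142 in WT, and 36.5 to 50.5 and 51.0 to 81.4 in HET. For glia it was 771 to 1104 and 373 to 403 in WT, and 805 to 1110 and 378 to 519 in HET. At 48 h, every HET culture was below every WT culture for the macrophage sum, and the neuron sum was 4387 to 4934 in WT and 4807 to 5197 in HET. At 48 h with the block, 3 of 12 neuron markers were higher in HET and 1 lower (median log2 difference 0.20), and 2 of 6 neutrophil and red cell genes were higher (1.68), beside 5.04% of all genes higher and 7.29% lower. Of 5 cell division genes 3 were lower (-1.22), and 1 was lower of each of the glia (0.07), fibroblast (-0.36), macrophage (-0.56) and endothelial and mural (0.07) markers. The neutrophil and red cell sum at 48 h was 5.93, 7.94 and 70.0 in HET and 4.95, 3.84 and 5.35 in WT. That of cell division genes was 14.2, 9.66 and 3.43 in HET and 20.7, 15.5 and 10.6 in WT. HET culture 3 thus lay apart in both, and these 2 differences are not shown to hold without it. No listed marker was at 0 in any culture. Several Rabs, such as Rab31, Rab32 and Rab34, are also expressed outside neurons, and the part of cell mixture in these results was not tested.

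Counting limits bear on some members. The files do not state whether reads were assigned by strand. In the GENCODE annotation of build GRCm38, Rab24 overlaps Prelid1, Rab3a overlaps Mpv17l2, Rab15 overlaps Fntb, Rab2b overlaps Tox4, Rab6a overlaps Mrpl48, Rab5a overlaps Pp2d1 and Rab37 overlaps Cd300lf on the opposite strand, so reads of these pairs may be mixed. Rab4a, Rab4b and Rab43 each overlap a gene model on their own strand. Of the 56 genes, 29 share their number with a lettered paralog, in 13 such sets, and how reads matching more than 1 paralog were assigned is not stated.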

How the data were processed

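RNA-seq of 18 cultures was analysed from 1 deposited table of 17198 genes. Per the submitters' processing notes, CASAVA 1.8.2, edgeR and build mm10 were used, and aligner, counting and gene filter are not given in the sources used here. Per the file headers, the authors deposited normalized counts (a signal with totals from 41509705 to 41509874, not whole reads), unlabelled plain adjusted signal columns, FPKM, log2 fold changes, and p-values with FDR. Group membership came from sample titles. These values lack 2 of the 17 directions possible among samples, a step the headers do not describe, so the 12 residual degrees of freedom are too many. The 6 of the fit with the replicate block may be too many as well. Another 24 per-sample columns were not used.

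log2(normalized count + 1) was fitted in limma 3.58.1 (R 4.3.3) with 1 coefficient per group over all 18 samples and a mean-variance trend. A minimum mean of 1 removed 0 genes. The fit was tested on simulated data for 48 h against 12 h in WT. It recovered 81 of 100 genes changed by 1 on the log2 scale and 98 of 100 changed by 2. The changed genes were drawn from those with a mean above 100 normalized counts, so lower genes such as Rab17 and Rab26 were not covered. Far fewer genes were changed than were called in WT, so the recovery may differ in the data. False calls are not given here. The simulated noise was independent between samples, so the test covers neither the absent directions nor the block. Deviations of same-numbered HET and WT cultures correlated at 0.209 to 0.461 at 48 h (3 pairs), 0.032 to 0.188 at 12 h and -0.207 to 0.258 at 24 h, so pairing was taken to hold at 48 h. HET and WT cultures of unlike numbers at 48 h correlated at -0.471 to 0.178. Deviations from a group mean cancel within the group, so positive values for same-numbered pairs force lower ones elsewhere. The unlike range therefore adds no support for pairing. The highest unlike value, 0.178 for WT culture 2 with HET culture 1, lay close to the 0.209 of the pair numbered 2. The block was fitted at all times, so its spread draws on the 12 and 24 h pairs as well. The members and lists were chosen with earlier results of these data known. Genes with values in every culture were up to 5 risers and 5 that fell per comparison by size, otherwise the 3 lowest p, the 3 highest and 3 lowest levels, Rab5a, Rab7, Rab11a, the Rab3 and Rab27 genes. Rab30, Rab32, Rab5c, Rab11b, Rab22a, Rab39b, Rab13, Rab23 and Rab35, and the list genes, were named after their values were seen. Alternatives were a pseudocount of 0.1, a minimum mean of 5, no filter, the plain columns, the block, the absent directions as covariates, the compared groups alone, no trend, and each culture left out.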

Additional observations from a re-analysis of the deposited data

How the results depend on the processing

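Of the values of named genes under the other settings, 605 kept direction and side of the threshold, 78 lost the call, 12 gained one and 0 reversed. Counts of Rab genes past the threshold at 12 and 24 h between genotypes, from 12 to 48 h in WT (23, and 18 to 24 with a culture left out) and from 12 to 24 h in HET (14, and 10 to 16) stayed within 1.5 times. From 12 to 24 h in WT the 3 calls became 7 with the absent directions as covariates, 5 in the compared groups alone, 0 without a trend, and 0 to 1 with a culture left out. From 12 to 48 h in HET the 8 calls became 0 in the compared groups alone and 0 to 14 with a culture left out. Between genotypes at 48 h the 0 calls became 0 to 5 with a culture left out. With the replicate number as a block, the counts were 10 at 48 h between genotypes, 2 averaged over times, 8 from 12 to 24 h in WT and 16 from 12 to 48 h in HET. With that block and without HET culture 3, chosen after seeing the data, the count at 48 h was 4. At every time the labels give only a number, and pairing at 48 h rests on the correlations above. Cultures from 12 to 48 h share numbers 1 and 2 only. Depth is unknown, so what it limits cannot be given. Shares of all genes are not set beside the counts of this section, so the shifts are not shown to be particular to Rab genes. The cause of these shifts was not tested.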
